A study of Mus musculus with 2 samples.

Results

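Adrenomedullin is a vasodilator peptide made by the gene Adm, and its receptor is built from the 7-span receptor protein Calcrl together with Ramp2 or Ramp3, small single-span proteins that carry Calcrl to the cell surface and set which peptide it binds. These 4 genes were followed here in retinoic acid-treated mouse embryoid bodies, as the probes whose only gene symbol is one of the 4 names. Each has 1 probe, so they make up 4 of 32440 probes and 4 of the 13697 genes that could be named. The members were selected on their earlier measured differences between these same 2 arrays, so their differences are descriptions and none was tested.

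Embryoid bodies are clumps of embryonic stem (ES) cells that differentiate together into a mixture of cell types. The groups were embryoid bodies from ES cells labelled Elongin A+/+ (1 array) and from ES cells labelled Elongin A-/- (1 array), both given 2 µM retinoic acid and collected at day 4, in medium with serum and the N2 supplement. Elongin A is the large subunit of a factor that speeds elongation by RNA polymerase II, and the comparison asks what differs in expression without it. The labels used here do not name the ES line, the number of clones or the kind of Elongin A allele, and no untreated bodies were analysed here. With 1 array each, the genotype cannot be told apart from the line, the culture or the array, which leaves no replicate error and limits the precision.

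Medians of the deposited intensities were 1.02 on the Elongin A+/+ array and 1.03 on the Elongin A-/- array. The arrays were quantile normalised, and intensities below are normalised unless called deposited. The floor is the median of all probes, 1.03: a gene under it on both arrays has no fold, and a gene under it on 1 array has only a lower bound, written "at least". Differences are log2 of Elongin A-/- minus log2 of Elongin A+/+. Of 9568 genes above the floor on at least 1 array, called measured here, 647 were at least 2-fold higher on the Elongin A-/- array (6.76%) and 571 at least 2-fold lower (5.97%). Higher genes were 53.1% of those 2-fold apart, and 64.1% with the values as deposited. Probes of the same gene, where both lay above the floor on both arrays, disagreed with an SD of 0.43 in the log2 difference (224 genes). This is a spread between probes on the same 2 arrays and holds nothing of cultures or lines. The members have 1 probe each, so it does not give their error. The probe of Eloa, the Elongin A gene, read 3.87 on the Elongin A+/+ array and 3.57 on the Elongin A-/- array. No source used here places this probe relative to the disrupted stretch of Eloa, so it checks nothing about the labels.

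Adrenomedullin acts through Gs and cyclic AMP on endothelium, where it guards the vessel barrier and helps form blood and lymphatic vessels. Mouse embryos that lack Adm, Calcrl or Ramp2 die in midgestation with oedema and vessel defects, while mice without Ramp3 are viable. Calcrl with Ramp1 instead makes a receptor for calcitonin gene-related peptide (CGRP), so the mix of RAMP proteins in a cell decides which peptides it answers to. Adm is also a well-known target of the hypoxia-inducible factors, and Ramp2 and Calcrl are typical of endothelial cells.

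The stretches of 250 bases before the RefSeq starts of Adm and Ramp3 are shown because these 2 members differed in opposite directions and have an entry in the RefSeq promoter table of GRCm38.p6. Of the 4 members 3 have an entry (Adm, Calcrl and Ramp3). Adm lies on the plus strand at chr7:110627407-110627656 and Ramp3 on the plus strand at chr11:6658283-6658532. Capitals mark GCGTG, a core of the hypoxia response element, and GGAA, the core bound by ETS factors, on either strand, so that CACGC and TTCC are the same motifs on the other strand.
Adm: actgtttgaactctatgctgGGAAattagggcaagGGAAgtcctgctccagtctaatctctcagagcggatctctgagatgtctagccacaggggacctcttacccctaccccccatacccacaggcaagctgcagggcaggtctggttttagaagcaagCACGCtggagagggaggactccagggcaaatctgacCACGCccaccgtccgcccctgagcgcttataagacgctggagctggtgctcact
Ramp3: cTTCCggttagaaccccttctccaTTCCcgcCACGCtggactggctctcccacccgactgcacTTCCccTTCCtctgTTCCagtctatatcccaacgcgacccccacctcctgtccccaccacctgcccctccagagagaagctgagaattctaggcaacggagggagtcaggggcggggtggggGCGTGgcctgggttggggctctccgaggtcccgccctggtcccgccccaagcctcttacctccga

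Adm held 2 copies of GCGTG in its window, starting 90 and 54 bases before the start, and 2 copies of GGAA at 230 and 215 bases. Ramp3 held 2 copies of GCGTG too, at 219 and 65 bases, and 5 copies of GGAA, all on the other strand. Calcrl held 1 copy of GCGTG, after its start, and 3 copies of GGAA. None of the 3 windows held ACGTG, the other hypoxia core, TGACGTCA, the full cyclic AMP response element, or AGGTCA, the half-site of retinoic acid and other nuclear receptors. These windows run 250 bases before to 50 bases after the start, were searched on both strands, and no GCGTG overlapped a GGAA in them. Among all 32851 windows of the table, GCGTG stood in 32.4%, GGAA in 96.0%, ACGTG in 19.6%, AGGTCA in 16.3% and TGACGTCA in 1.79%. A match is only a run of letters.

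The ligand gene and 1 receptor subunit gene were higher on the Elongin A-/- array, another subunit gene was lower, and the shared receptor gene was not above the floor. Ramp2 was at least 16.3-fold higher, Adm was 3.95-fold higher, Ramp3 was 1.88-fold lower, and Calcrl lay under the floor on both arrays. Of the 3 measured members 2 were at least 2-fold higher, against 6.76% of all measured genes, and 0 of 3 were at least 2-fold lower, against 5.97%. Nothing is read from these counts, since the members were chosen with these differences in view. No 2 probes can be ranked by level here, so the arrays do not say which of Ramp2 and Ramp3 was the more abundant on either array.

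**Figure D1:**
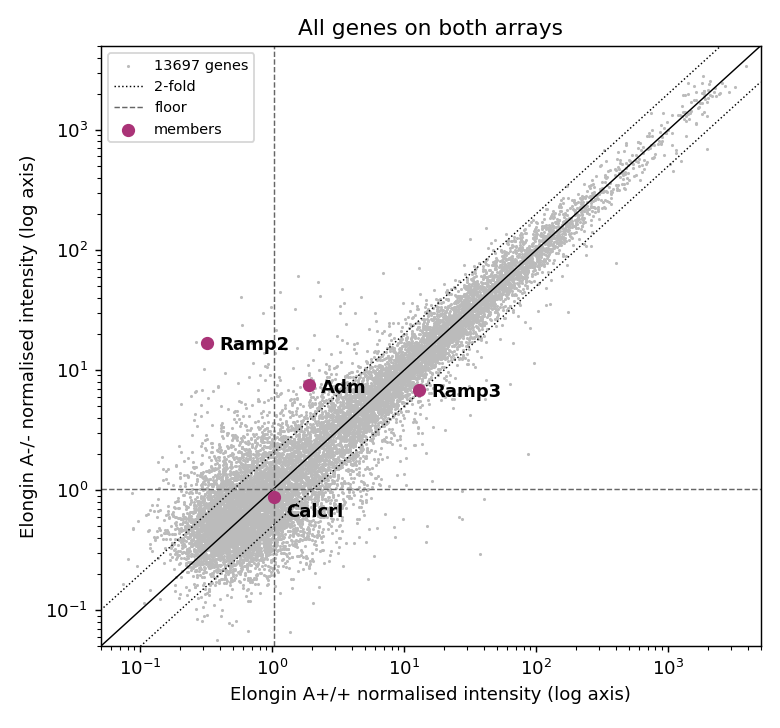
Each gene's normalised intensity on the Elongin A+/+ array (x axis) and the Elongin A-/- array (y axis), both log axes, with the 4 members in purple, the floor of 1.03 dashed and 2-fold dotted. Ramp2 stands at 0.318 and 16.7, Adm at 1.88 and 7.44, Ramp3 at 12.8 and 6.81, and Calcrl at 1.02 and 0.873.

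Adm (probe 682371), the ligand, had an intensity of 1.88 on the Elongin A+/+ array and 7.44 on the Elongin A-/- array. As deposited the values were 1.81 and 7.83. The Elongin A-/- array was the higher, with both values above the floor, and the log2 difference was 1.98. Its value on the Elongin A+/+ array was close to the floor, and at such levels genes scatter widely. Of the 1229 other genes above the floor on both arrays whose mean level lay within 0.5 log2 units of Adm's, 20.3% were at least 2-fold apart in either direction. By size of increase Adm was at rank 113 of the 9568 measured genes. A floor raised to the 75th percentile left Adm a bound of only 0.52.

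Ramp2 (probe 342305) encodes the partner that turns Calcrl into the main adrenomedullin receptor of endothelium. It read 0.318 on the Elongin A+/+ array, below the floor, and 16.7 on the Elongin A-/- array. As deposited these were 0.336 and 17.4. The Elongin A-/- array was far the higher, and by increase, bounds counted at their bound, Ramp2 was at rank 12 of the measured genes. The log2 bound was 4.02, and the difference without a floor was 5.71, a figure that rests on a value in the background range. Of the 2039 genes that, like Ramp2, were above the floor on 1 array only, 23.2% were at least 2-fold apart, against 9.90% of the 7529 above it on both. Of 1185 other measured genes within 0.5 log2 units of Ramp2 on the Elongin A-/- array, whatever their level on the other, the share was 5.74%. Under that raised floor its bound was 1.68.

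Ramp3 (probe 385228) encodes the partner that makes the second adrenomedullin receptor and that changes how the receptor is recycled after it is internalised. It read 12.8 on the Elongin A+/+ array and 6.81 on the Elongin A-/- array, or 12.4 and 7.17 as deposited. Both values were well above the floor and the Elongin A-/- array was the lower, with a log2 difference of -0.91. That is within 2-fold, and no error between cultures stands behind it. Of the 1212 other genes above the floor on both arrays and within 0.5 log2 units of its mean level, 7.76% were at least 2-fold apart. Measured genes of its chromosome ran the other way, and with that chromosome's median removed the difference was -1.33, past 2-fold.

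Calcrl (probe 436322) encodes the receptor that both RAMP proteins need in order to bind adrenomedullin. Its probe read 1.02 on the Elongin A+/+ array, just under the floor, and 0.873 on the Elongin A-/- array. Deposited values were 1.02 and 0.864. Neither array gave a level above the floor, so no order or fold is given, and a level near or under the median of a whole-genome array does not show that the gene is silent. Of the members it was the only one not measured on either array.

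Beyond the members, the calcitonin peptide family gave few readable probes. The list of other family ligands held Adm2 (intermedin), Calca (calcitonin and CGRP), Calcb (a second CGRP) and Iapp (amylin). Adm2 read 0.584 on the Elongin A+/+ array and 0.353 on the Elongin A-/- array, and Calcb 0.221 and 0.236, both under the floor on both arrays. Calca and Iapp are not among the genes named here. Adm was thus the only ligand of the list above the floor on either array, out of 3 named on them.

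Among the receptor subunits, Calcr, the calcitonin receptor and core of the amylin receptors, read 5.11 on the Elongin A+/+ array and 0.923 on the Elongin A-/- array. It was at least 4.98-fold lower, and the median over the 518 measured genes of its chromosome, 6, was -0.26. Ramp1, the CGRP receptor subunit, was under the floor on both arrays with 0.811 and 0.927. Crcp, a protein that couples the CGRP receptor to signalling and is also a subunit of RNA polymerase III, read 8.59 and 10.4 on its brighter probe. Its other probe read 6.73 and 6.52, so its probes disagreed in sign. Of the 6 receptor subunits on the list, 4 were measured. Ramp2 was at least 2-fold higher, Calcr at least 2-fold lower, and Ramp3 and Crcp lay within 2-fold.

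Genes that make, degrade or capture the peptide differed in both directions. Mme, the protease neprilysin that degrades adrenomedullin and other small peptides, read 1.24 on the Elongin A+/+ array and 5.11 on the Elongin A-/- array, a 4.11-fold increase from near the floor. Pam, the enzyme that amidates the end of the peptide and so makes it active, read 7.68 and 4.68, a log2 difference of -0.72. Ackr3, a scavenger receptor that takes up adrenomedullin as well as chemokines, read 13.0 and 10.1 (-0.37). Gpr182, an endothelial receptor once proposed to bind adrenomedullin, was under the floor on both arrays. Of these 4 genes 3 were measured, with 1 at least 2-fold higher (6.76% of all measured genes) and 0 at least 2-fold lower (5.97%).

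**Figure D2:**
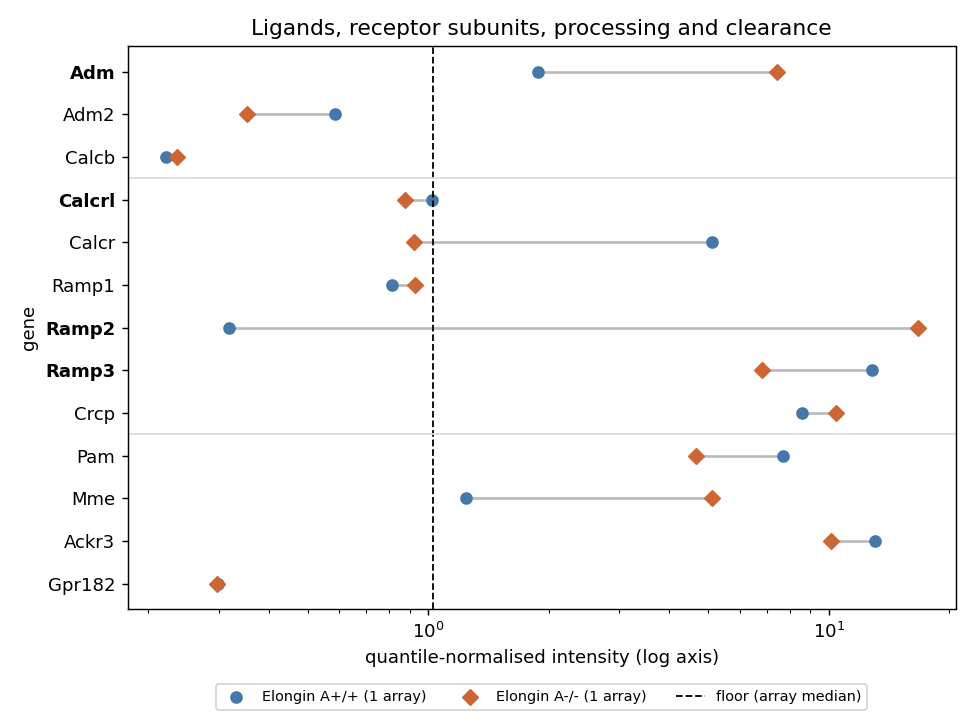
Normalised intensity (log x axis) of each ligand, receptor subunit and processing or clearance gene named on the arrays, with circles for Elongin A+/+, diamonds for Elongin A-/-, 1 array each, members in bold and the floor of 1.03 dashed. Ramp2, Adm and Mme lie to the right on the Elongin A-/- array, Calcr, Ramp3 and Pam to the left, and Calcrl, Ramp1, Adm2, Calcb and Gpr182 stay at or under the floor.

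Signalling genes downstream of the receptor had a median close to that of all genes. Of 37 listed genes of Gs and cyclic AMP signalling 27 were named on the array and 22 measured. Of these 2 were at least 2-fold higher (6.76% of all measured genes) and 2 at least 2-fold lower (5.97%). Their median was -0.06, beside -0.02 over all 9568 measured genes. Gnas, the Gs alpha subunit, read 470 and 433. Pde4d, which breaks down cyclic AMP, read 1.32 and 6.81 (5.15-fold higher). Prkaca, a catalytic subunit of protein kinase A on chromosome 8, where the median of measured genes was 0.43, read 1.32 and 3.33 (2.53-fold higher). Both increases started near the floor. Prkar2b, a regulatory subunit of the same kinase, read 5.55 and 2.14 (2.60-fold lower). Arrb1, a beta-arrestin that switches receptors off, read 2.87 and 0.910, at least 2.80-fold lower. Gnas was looked at after its value was seen.

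Genes induced by low oxygen were set beside Adm because Adm is one of them. Of 25 listed hypoxia targets other than Adm, 19 were named on the array and 16 measured. Of these 13 were higher on the Elongin A-/- array by any margin and 3 lower, while 48.4% of all measured genes were higher. Their median was 0.48, beside -0.02 over all measured genes. Only 2 of the 16 were at least 2-fold higher (6.76% of all measured genes) and 1 at least 2-fold lower (5.97%). Ddit4, a stress-induced brake on mTOR signalling, read 11.1 and 31.2 (2.81-fold higher), and Car12, a carbonic anhydrase, at least 3.56-fold higher with 0.740 and 3.66. P4ha2, a collagen prolyl hydroxylase on chromosome 11, read 25.3 and 45.9 (1.81-fold higher), and Pfkfb4, a regulator of glycolysis, read 2.71 and 1.13 (2.40-fold lower). Car9, a carbonic anhydrase that is a classic hypoxia marker, was under the floor on both arrays with 0.521 and 0.306. Car9 was looked at after its values were seen.

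Regulators of the hypoxia-inducible factors, with their partners and the subunits of the ligase that removes them, were near the background. Of 14 listed regulators of hypoxia-inducible factors 12 were named on the array and 10 measured, with 0 at least 2-fold higher (6.76% of all measured genes), 1 at least 2-fold lower (5.97%) and a median of -0.21. The middle 50% of all measured genes ran from -0.36 to 0.36. Egln1, an oxygen-sensing prolyl hydroxylase on chromosome 8, read 55.0 and 95.2 (1.73-fold higher), and Hif3a was at least 2.02-fold lower with 2.07 and 0.499. Vhl, which marks these factors for destruction as part of a ligase that uses Elongin B and C, read 1.68 and 2.24, and Arnt2, a partner of the factors, 53.8 and 41.2. The gene of the main factor, Hif1a, is not among the genes named here. The part of these genes and of the hypoxia targets in the Adm value was not tested.

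Endothelial markers were higher on the array where Ramp2 and Adm were higher. Of 26 listed markers, which leave out the members, 23 were named on the array and 18 measured. Of these 12 were at least 2-fold higher on the Elongin A-/- array (6.76% of all measured genes) and 0 at least 2-fold lower (5.97%). The median was 2.26. By any margin 17 were higher and 1 lower, while 48.4% of all measured genes were higher. Of the 18 values 10 were bounds, and a 75th percentile floor gave a median of 0.96. The summed intensity of the 23 named markers was 33.9 on the Elongin A+/+ array and 233 on the Elongin A-/- array, 6.87 times as much. Cldn5, a tight junction protein of endothelium, read 1.56 and 60.2, and Kdr, the receptor for vascular endothelial growth factor, 2.23 and 54.4. Sox7, an endothelial and endodermal transcription factor, read 1.25 and 14.9, and Cd34, a surface sialomucin of endothelium and blood progenitors, 0.385 and 7.30. Vwf, the von Willebrand factor of endothelium and platelets, was the lower one, with 2.03 and 0.982. The defining endothelial genes Cdh5, Tie1, Erg, Nos3 and Robo4 were under the floor on both arrays. Vwf and these 5 were picked out after their values were seen. In RNA from whole embryoid bodies, more cells of a type and more RNA per cell cannot be told apart, and the part of endothelial cells in the Ramp2 and Adm values was not tested.

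Markers of other vessel and blood cells were split. Of 8 lymphatic endothelial markers 6 were measured, 3 of them as bounds. Of the 6, 2 were at least 2-fold higher (6.76% of all measured genes) and 2 at least 2-fold lower (5.97%). Their median was -0.65 and their summed level 34.7 and 58.5. Foxc2 carried the higher sum: without it the other 7 summed to 21.6 and 15.5. A 75th percentile floor gave a median of 0.16, the mean over probes -0.28 and no floor -1.04. Lyve1, a hyaluronan receptor of lymphatic endothelium, was at least 5.67-fold higher with 0.977 and 5.83. Foxc2, a factor of lymphatic valves and mesoderm, was 3.27-fold higher with 13.1 and 43.0. Foxc2 lies on chromosome 8, where the median of measured genes was 0.43. Prox1, the master regulator of lymphatic identity, was 2.02-fold lower with 3.48 and 1.72, and Pdpn, a mucin of lymphatic vessels, 2.11-fold lower with 12.9 and 6.11. Blood markers were measured for 6 of the 9 named on the array. Of these 4 were at least 2-fold higher (6.76% of all measured genes) and 0 at least 2-fold lower (5.97%). Their median was 2.27 and their summed level 11.5 and 44.2. Of the 6 values 5 were bounds, and the median fell to 0.57 with no floor, to 0.66 with a 25th percentile floor and to 0.87 with a 75th percentile floor. The higher ones were Tal1 (at least 10.6-fold), the embryonic globin genes Hbb-bh1 (at least 8.07-fold) and Hba-x (at least 5.89-fold), and Lmo2 (3.95-fold). Hba-x lies on chromosome 11, where the median of measured genes was 0.41. Klf1 (-0.57) and Spi1 (-0.77) had lower values on the Elongin A-/- array, both as bounds, and Gata1, Alas2 and Ptprc were under the floor on both arrays. These 5 genes were picked out after their values were seen. The part of these cells in the values of the members was not tested.

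Markers of smooth muscle, heart, neural cells and endoderm gave medians from -0.64 to 0.18. With the floor at the 75th percentile, smooth muscle was left with Tagln alone (-2.32) and heart with Nkx2-5 alone (0.62). Visceral endoderm was then left with Sox17 alone (0.90), so these values do not describe the whole lists. Smooth muscle and pericyte markers had a summed level of 49.5 and 18.3, with a median of 0.04 over 6 of 10 measured. Tagln, a contractile protein, alone carried the lower sum, with 41.4 and 8.29 (4.99-fold lower). Smtn, on chromosome 11, where the median of measured genes was 0.41, read 1.98 and 4.04 (2.04-fold higher). Cardiac markers had a median of -0.64 over 4 measured of 8 named on the array and sums of 15.1 and 14.3, with Nkx2-5 2.19-fold higher and Actc1 3.21-fold lower. Neural progenitor and neuron markers, the class that retinoic acid is known to induce, were measured for 11 of 12 named on the array. Their median was -0.54, with 0 at least 2-fold higher (6.76% of all measured genes) and 3 at least 2-fold lower (5.97%). Their summed level was 402 and 282, and much of the lower sum lay with Stmn2 and with Sox2 (72.2 and 39.5). Neurog2, a proneural factor, read 8.07 and 2.42, Stmn2, a neuronal microtubule regulator, 82.3 and 25.1, and Sox1, a neural progenitor factor, was at least 2.43-fold lower. The neural list was not uniform: 8 log2 differences were negative and 3 positive. The positive ones were Pax6 (0.46) and, as bounds, Olig2 (0.58) and Dcx (0.46). These 3 genes were picked out after their values were seen. Visceral endoderm markers had a median of 0.18 over 7 of 10, sums of 20.2 and 25.5, Ttr at least 3.34-fold higher and Afp at least 3.89-fold lower. Sox17, which is also on the endothelial list, carried most of the higher sum with 5.71 and 10.6.

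**Figure D3:**
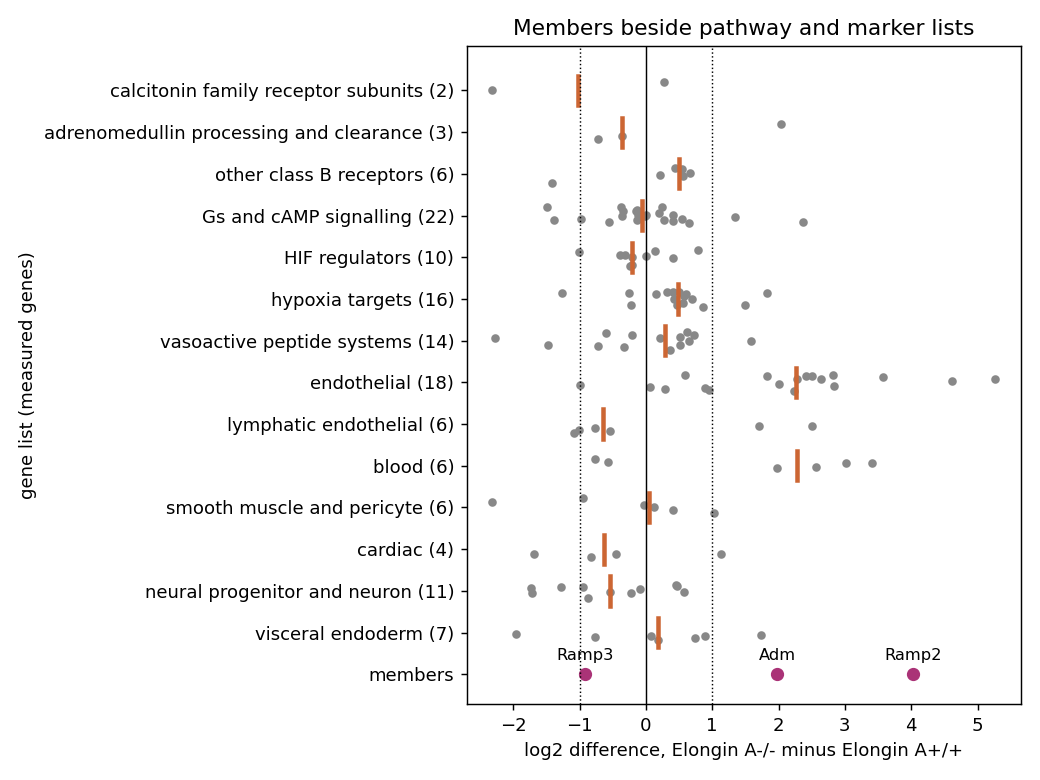
Log2 difference (x axis, Elongin A-/- minus Elongin A+/+) of each measured gene of the pathway and marker lists, with the number measured in brackets, a bar at each list's median, dotted lines at 2-fold and the 3 measured members in the bottom row. Differences with 1 array under the floor are plotted at their bound. The endothelial and blood medians lie at 2.26 and 2.27, and at 1.83 and 0.57 with no floor, while Adm lies at 1.98, Ramp2 at 4.02 and Ramp3 at -0.91.

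Both RAMP genes lie on chromosome 11, where genes were higher in general on the Elongin A-/- array. Of its 803 measured genes 76.8% were higher, 11.8% at least 2-fold higher and 2.86% at least 2-fold lower. The median was 0.41 with or without the RAMP genes. Chromosome 8 stood alike, with a median of 0.43 and 77.8% of 522 measured genes higher. The other autosomes had medians from -0.26 (chromosome 6) to -0.0046 (chromosome 19). With each chromosome's median removed, Ramp2 kept a difference of 3.61 and Ramp3 stood at -1.33. Adm lies on chromosome 7, where the median of 765 measured genes was -0.01, and Calcrl on chromosome 2, with a median of -0.05. The part of the chromosome in the RAMP values was not tested beyond this removal of its median.

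The nearest measured genes on each side, 5 and 5, were set beside each member in the gene order of GRCm38.p6, a step chosen after the values were seen. Around Ramp2 9 of 10 were higher, with a median of 0.44 and a range from -0.82 (Cntnap1) to 1.22 (Plekhh3, a bound), and 3 were at least 2-fold higher. Genes not measured were skipped. The nearest measured genes before and after Ramp2 were Cntnap1, a protein of axon-glia junctions (2.00 and 1.13), and Vps25, an endosomal sorting subunit (36.9 and 78.5). Neither approached the difference of Ramp2. Around Ramp3 9 of 10 were also higher, with a median of 0.50, from -0.23 (Purb, a bound) to 3.22 (Upp1, uridine phosphorylase, 2.08 and 19.4). Its nearest measured neighbours Tbrg4 (81.5 and 92.6) and Igfbp3 (6.80 and 7.68), which binds insulin-like growth factors, were both slightly higher, while Ramp3 was lower.

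Around Adm 5 of 10 neighbours were higher and 5 lower, with a median of 0.03. The lowest was Wee1, a mitotic kinase and the nearest measured gene before Adm, with a log2 difference of -1.75 (3.44 and 0.845, a bound). The highest was Lyve1, the third measured gene after Adm, at least 5.67-fold higher. Ampd3, an AMP deaminase and the nearest measured gene after Adm, had 1.13 and 0.477. Around Calcrl 5 of 10 were higher, with a median of 0.03. Tfpi, a coagulation inhibitor made by endothelium and the nearest measured gene after Calcrl, read 3.60 and 6.29 (1.75-fold higher). Frzb, a secreted WNT antagonist, read 1.34 and 4.54 (3.39-fold higher).

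**Figure D4:**
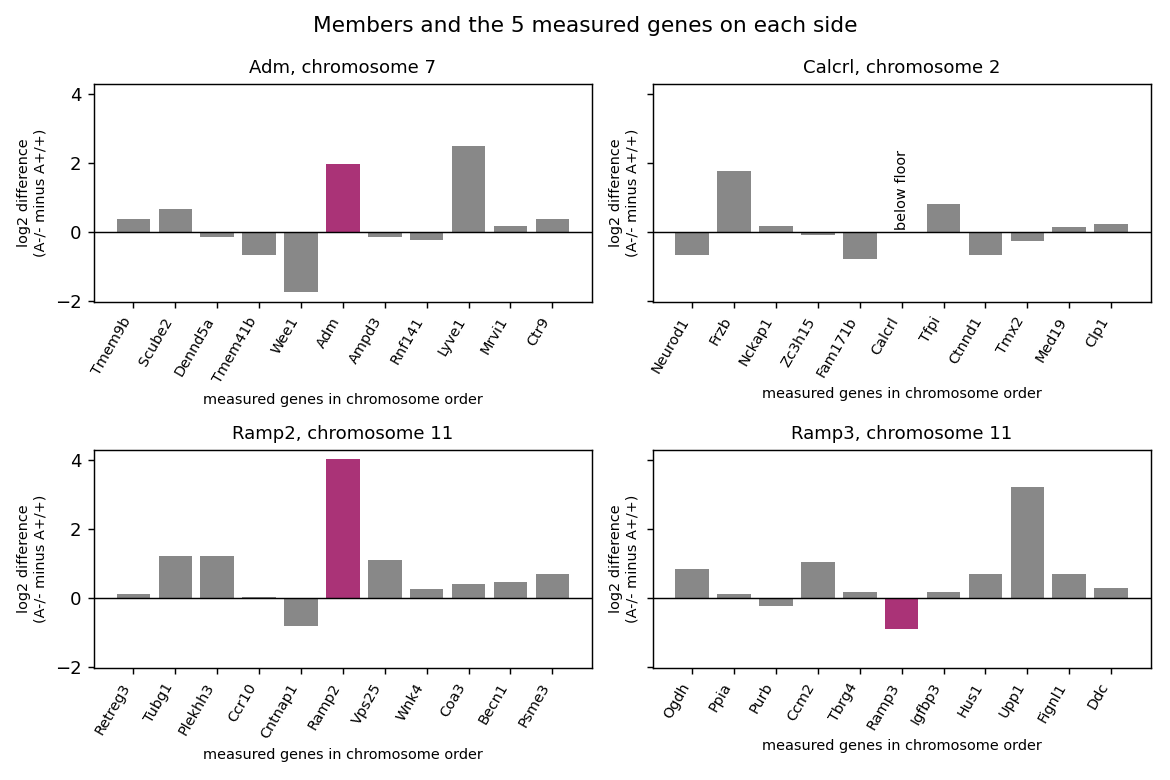
Log2 difference (y axis, Elongin A-/- minus Elongin A+/+) of each member, in purple, and the 5 measured genes on each side in chromosome order (x axis, not to scale), with differences that have 1 array under the floor drawn at their bound. Ramp2 lies at 4.02 and its neighbours at 1.22 or less, and Ramp3 points down at -0.91 where 9 of 10 neighbours point up.

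The genes nearest to each member by their pair of log2 levels were also listed, with likeness measured as the straight-line distance over the 2 arrays. Nearest to Adm were Mogat2, an acyltransferase of fat absorption (1.75 and 8.04, distance 0.15), Pmp22, a myelin and epithelial membrane protein (2.10 and 7.13, distance 0.17), and Abhd15 (2.03 and 8.28, distance 0.19). Nearest to Ramp2 were H1f8, the oocyte linker histone (0.266 and 17.0, distance 0.26), Gimap6, a GTPase of lymphocytes (0.301 and 10.3, distance 0.71), and Pcdh7, a protocadherin (0.438 and 9.36, distance 0.95). Nearest to Ramp3, at shorter distances, were C2cd5 (12.8 and 6.82, distance 0.0029), Ggct (12.9 and 6.88, distance 0.017) and Fut11 (13.3 and 7.12, distance 0.081). A match over 2 arrays says no more than that the levels were alike.

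The values of the 3 measured members were recomputed under 10 other settings. Since each has 1 probe, both settings of the probes return the same value, and a change of the floor cannot turn a sign. Ramp3 ranged from -1.33 to -0.79, and only with chromosome medians removed was it past 2-fold. Adm ranged from 0.52 to 2.11 and was under 2-fold only with the floor at the 75th percentile. Ramp2 ranged from 1.68 to 5.71 and stayed past 2-fold.

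**Figure D5:**
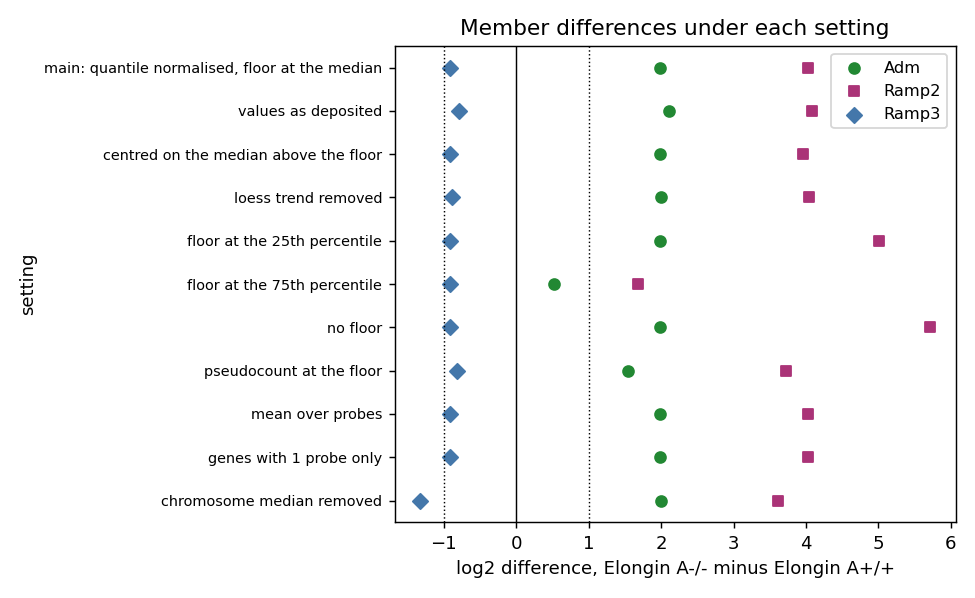
Log2 difference (x axis, Elongin A-/- minus Elongin A+/+) of Adm, Ramp2 and Ramp3 under the setting used in the text (top row) and 10 others, with dotted lines at 2-fold. Ramp2 and Adm move most with the floor, to 1.68 and 0.52 at the 75th percentile, and Ramp3 stays between -1.33 and -0.79.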

How the data were processed

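Embryoid bodies of each genotype were measured on 1 array of 32440 probes. Per the labels' protocols, 1 µg of RNA was copied into digoxigenin-labelled cRNA and read by chemiluminescence. What the authors deposited are linear intensities, from 0.0532 to 4352. Medians near 1 on both arrays point to scaling by the authors. The scaling, background correction and filters they used are named in no source used here.

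The platform annotation named the probes: 14253 have 1 gene symbol, 243 several and 17944 none. All probes, named or not, entered the normalisation and the floor. For genes only probes with 1 symbol were used, and 14245 of them matched the RefSeq table of GRCm38.p6, which gave chromosomes and gene order. The 25th percentiles of the arrays differed by -0.12 and the 75th by 0.15 on the log2 scale, so log2 values were quantile normalised in Python 3.11.15 with numpy 2.4.6 and pandas 2.3.3. Quantile normalisation hides a shift of most genes in 1 direction. Values under the floor, the median of all probes, were set to it before a difference was taken. A gene with several probes was given by the probe with the highest mean.

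A size of 2-fold was used throughout, with no p-value, since each genotype has 1 array and so no spread. The members, the 8 pathway lists and the 7 marker lists were chosen with earlier results of these data known. Named genes are the members, Eloa, Hif1a as the main factor of its list, all genes of the ligand, receptor subunit and processing lists, up to 4 measured genes with the largest absolute difference from each other list, the 3 genes nearest in level to each measured member, and those said to be chosen once their values were seen. A further listed gene is not reported here. The neighbours in gene order belong to the last kind. The loess alternative used a span of 0.3 in statsmodels 0.14.6. The code was checked on simulated data, with differences planted only in genes of 1 probe whose mean level lay some way above the median probe. Genes with a mean level close to the floor were thus left out of the planting. The simulation is a check of the code and not of the members' values.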

Additional observations from a re-analysis of the deposited data

How the results depend on the processing

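In 10 other settings, of which those of the floor and the probes cannot turn the sign of a member, the measured members kept their direction. Calcrl, under the floor on both arrays, had a difference only with the floor at the 25th percentile or no floor (-0.23 in both). Over all measured genes the median was -0.02, but 0.07 when values were kept as deposited. With the floor at the 25th percentile Ramp2 was 5.01, 1075 genes were at least 2-fold higher and 980 lower, the median of the receptor subunits other than the members turned from -1.02 to 0.19, and that of blood markers was 0.66. Raising the floor to the 75th percentile, Adm was 0.52, Ramp2 1.68, and 141 genes were higher and 118 lower. Medians there were 0.96 for endothelial, 0.16 for lymphatic and 0.87 for blood markers. The other receptor subunits were then Crcp alone, with 0.28. Smooth muscle was Tagln alone (-2.32), cardiac Nkx2-5 alone (0.62, from a median of -0.64) and visceral endoderm Sox17 alone (0.90). With no floor Ramp2 was 5.71, 1506 genes were higher and 1414 lower, and the medians of the other receptor subunits, endothelial and blood markers were 0.19, 1.83 and 0.57. With a pseudocount at the floor Adm was 1.54, and with genes of 1 probe only the other receptor subunits, then Calcr alone, had -2.32. At 1.5-fold 1512 genes were higher and 1416 lower, and at 3-fold 213 and 178. A different floor changes which genes are measured, and the cause of the other moves was not tested. Other family ligands gave no median, since none was measured. No paired analysis was possible because there was 1 array per genotype.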

Other observations

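Other vasoactive peptide systems held genes on both sides. Of 27 listed genes 23 were named on the array and 14 measured. Of these 1 was at least 2-fold higher (6.76% of all measured genes) and 2 at least 2-fold lower (5.97%). Their median was 0.29. With the mean over probes it was -0.01. Edn1, the gene of the vasoconstrictor endothelin-1 made by endothelium, read 1.15 on the Elongin A+/+ array and 3.47 on the Elongin A-/- array (3.01-fold higher). Nppc, the C-type natriuretic peptide, read 23.3 and 4.81 (4.85-fold lower), Nppa, the atrial natriuretic peptide, was 1.66-fold lower, and Agtr2, an angiotensin receptor, was at least 2.79-fold lower with 2.87 and 0.872.

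Receptors of the same class as Calcrl, the class B receptors for peptide hormones, were measured for 6 of 9 named on the array. Of these 0 were at least 2-fold higher (6.76% of all measured genes) and 1 at least 2-fold lower (5.97%). Their median was 0.49. Pth1r, the parathyroid hormone receptor, read 29.9 and 43.9. Glp1r read 1.07 and 1.56, Crhr1 was at least 1.59-fold higher with 0.621 and 1.63, and Crhr2 at least 2.66-fold lower with 2.73 and 1.01. Crhr1 lies on chromosome 11 and Crhr2 on chromosome 6, where the medians of measured genes were 0.41 and -0.26.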
